A study of Mus musculus with 4 samples.

Results

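Growth factors and chemokines that feed, call in or hold myeloid cells are described here in tumor cells sorted from mice under PD-1 blockade: the growth factors Csf1, Il34 and Kitl, the monocyte chemokines Ccl2, Ccl7 and Ccl12, the neutrophil chemokines Cxcl1 and Cxcl5, the homeostatic chemokine Cxcl12, and the cytokine Mif. They were taken by symbol from a fixed list, and all 10 were found among the 53379 gene identifiers in the count files. The cells were MC38-GFP+, a mouse colon adenocarcinoma line carrying GFP, grown under the skin of C57BL/6 mice from an inoculum of 50000 cells. Every mouse received 100 µg doses of an anti-PD-1 antibody, a course described as sub-optimal, on days 12, 15, 18 and 22. Cancer cells were sorted from 2 groups of tumors, responder and non-responder, and sequenced in bulk as 2 libraries per group. All of these mice were treated, so no untreated tumor is in the comparison, and the criterion for response is not given in the labels. The labels are also silent on whether replicates are different mice, so p-values reflect only the variation among these libraries, part of which may be technical.

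CSF1 and IL-34 are the ligands of the receptor CSF1R, which keeps monocytes and macrophages alive and dividing. KITL, or stem cell factor, does the same for mast cells and early blood progenitors through the receptor KIT. The CC chemokines CCL2, CCL7 and CCL12 draw monocytes out of the marrow and into tissue through CCR2, and CCL12 is a mouse protein with no direct human counterpart. CXCL1 and CXCL5 act on neutrophils through CXCR2, CXCL12 holds CXCR4-bearing cells in marrow and stroma, and MIF is an inflammatory cytokine that binds CD74 with CD44.

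Total counts were 18447041 to 21754063 per library, so 1 read was worth 0.0448 to 0.0523 CPM (counts scaled to library size), and 3 reads 0.135 to 0.157 CPM. All CPM values are scaled by TMM factors, and each group has n = 2. The tumor label rests on the sort. Of 8 epithelial and colonic markers, 7 stayed under 1 CPM in every library, among them Epcam and Krt8, and the 8 together summed to 2.53 and 1.94 CPM in responder and 0.821 and 3.23 CPM in non-responder replicates 1 and 2. Leukocyte transcripts were present at low levels that differed widely between libraries. The 10 pan-leukocyte markers summed to 22.6 and 60.4 CPM in responder replicates 1 and 2, against 60.3 and 148 CPM in non-responder replicates 1 and 2. The 14 macrophage and monocyte markers summed to 21.1 and 124 CPM in the responder libraries, against 133 and 337 CPM in the non-responder libraries. All 10 pan-leukocyte markers and 12 of the 14 macrophage markers were lowest in responder replicate 1, and all of both lists were highest in non-responder replicate 2. In bulk samples such as these, fewer cells of a type and less RNA per cell cannot be told apart.

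In these cells 6 of the factors were abundant and 4 were scarce, with abundant set at 10 CPM or more in all 4 libraries. Csf1, Kitl, Ccl2, Il34, Cxcl1 and Mif were abundant, and Ccl7, Cxcl5, Ccl12 and Cxcl12 scarce. The limit fell between near neighbors. Cxcl1 lay just inside, with a lowest value of 11.5 CPM, and Ccl7 just outside, with a lowest value of 9.56 CPM and at least 15.1 CPM in the other 3 libraries. The other scarce factors never exceeded 2.75 CPM. The abundant factors held 98.3% and 98.2% of all reads on the 10 genes in responder replicates 1 and 2, against 98.0% and 96.8% in non-responder replicates 1 and 2, and Csf1 alone held 39.3% and 38.9% in responder and 48.9% and 36.2% in non-responder libraries.

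**Figure D1:**
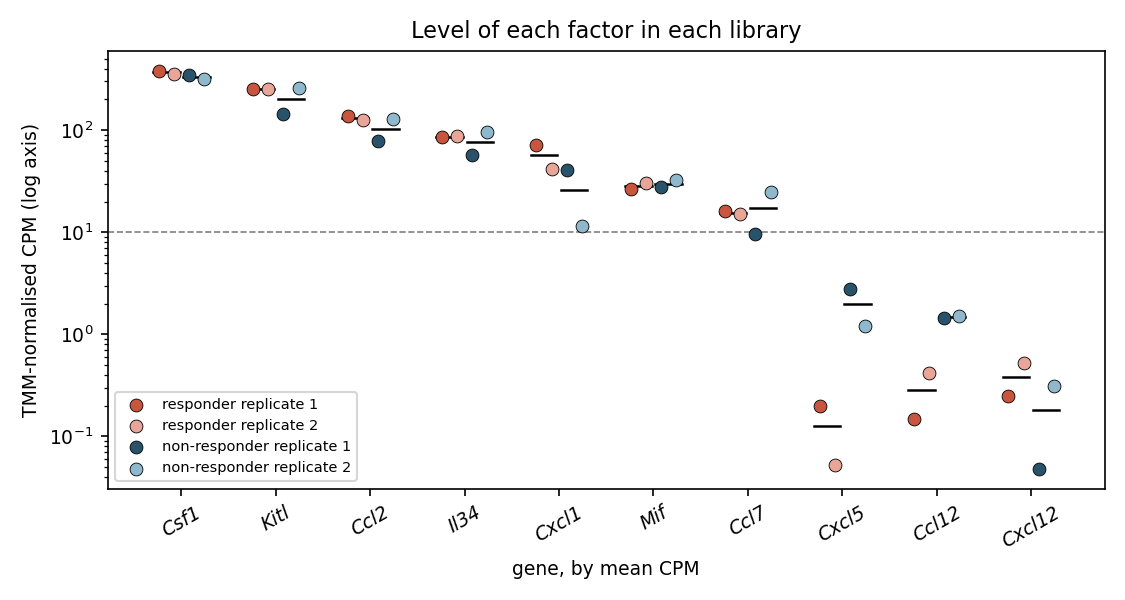
TMM-normalised CPM of the 10 factors on a log axis, 1 point per library (responder libraries in red, left; non-responder libraries in blue, right), with a black bar at each group mean and a dashed line at 10 CPM. The non-responder libraries lie apart for Cxcl1, Kitl, Ccl2, Il34, Ccl7, Cxcl5 and Cxcl12. Cxcl5 and Ccl12 sit lower in both responder libraries. Heights of different genes are not corrected for length.

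Levels of different genes were compared as TPM, which corrects for transcript length. Ccl2 was the highest of the 10 in all 4 libraries, with 448 and 405 TPM in responder libraries and 243 and 433 TPM in non-responder libraries. Csf1 was second in all 4 libraries, with 270 and 243 TPM in responder and 231 and 230.2 TPM in non-responder libraries. The ranges of Ccl2 and Csf1 overlapped, those of Csf1 and the next factor did not. Il34, Mif and Kitl followed with means of 154, 144 and 143 TPM and ranges that overlapped, so their mutual order was not resolved. Cxcl1 averaged 81.1 TPM and Ccl7 76.1 TPM, also with overlapping ranges. The range of Ccl7 did not reach that of Ccl12, which averaged 6.09 TPM. Cxcl5 averaged 2.06 TPM and Cxcl12 0.129 TPM, and each overlapped in range with the factor above it. Among 13792 genes tested, Ccl2 ranked 306 and Csf1 583 by mean TPM, whereas Ccl12 ranked 10022 and Cxcl5 11920.

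None of the factors passed the test between responder and non-responder tumor cells, and Cxcl12 was too low to be tested. In edgeR's quasi-likelihood fit, with p-values adjusted by Benjamini-Hochberg, 0 of the 9 tested factors passed an adjusted p of 0.05, where 0% of all tested genes passed. At an unadjusted p under 0.05 there were 2 of 9, Cxcl5 and Ccl12, both with a negative fold change, where 6.21% of all tested genes passed. DESeq2 gave the same 2 at its unadjusted p, and Cxcl5 alone at its adjusted p, where 64 of 14216 genes passed. Those 2 factors entered the test through their reads in the non-responder libraries alone, so a low value in responders was built into their selection and their count supports nothing further. Responder and non-responder libraries did not overlap for 4 of the 9 (Csf1, Cxcl1, Ccl12 and Cxcl5), against 36.5% of all tested genes. Fold changes were positive for 5 of the 9, against 48.9% of all tested genes, with a median of 0.16 on the log2 scale against -0.01 for all tested genes. Among the 6 abundant factors 5 were positive, at a median of 0.26.

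Csf1, the main macrophage growth factor, was the steadiest of the growth factors. It had 383 and 354 CPM in responder libraries and 345 and 315 CPM in non-responder libraries. Both responder values lay above both non-responder values, but the highest library was only 1.22 times the lowest. The log2 fold change was 0.16 (SE 0.19, 95% interval -0.28 to 0.60, edgeR adjusted p = 0.919). Csf1 (ENSMUSG00000014599) lies on chromosome 3 from 107741048 to 107760469 (GRCm38, minus strand), and its counts cover 5281 exonic bases.

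Il34, the other CSF1R ligand, had 85.4 and 87.1 CPM in responder libraries and 56.6 and 95.9 CPM in non-responder libraries. The responder libraries lay within the spread of the non-responder libraries. Its log2 fold change of 0.18 (SE 0.25, interval -0.41 to 0.77, edgeR adjusted p = 0.933) turned to -0.15 when non-responder replicate 1 was left out and was 0.61 in the fit that lacked replicate 2 of that group. Csf1 gave 4.48 and 4.06 reads per Il34 read in responder and 6.09 and 3.28 in non-responder replicates 1 and 2. Il34 (ENSMUSG00000031750, chromosome 8 from 110741829 to 110805924) shares 97 of its 1959 exonic bases with genes on the opposite strand, and counting was by strand.

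Kitl, the ligand of KIT, had 255 and 253 CPM in responder libraries and 144 and 259 CPM in non-responder libraries. Non-responder replicate 1 stood alone at the low end, and the other 3 libraries lay between 253 and 259 CPM. The group means were 254 ± 1.24 and 201 ± 81.0 CPM (SD), with a log2 fold change of 0.33 (SE 0.28, interval -0.32 to 0.98, edgeR adjusted p = 0.876). It was 0.81 and passed (edgeR adjusted p = 0.0459) when non-responder replicate 2 was left out, but -0.02 in the fit that lacked replicate 1 of that group. Kitl (ENSMUSG00000019966) lies on chromosome 10 from 100015630 to 100100416.

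Ccl2, the chief monocyte attractant, showed the same pattern across libraries. It had 137 and 127 CPM in responder libraries and 78.2 and 128 CPM in non-responder libraries, so that again only non-responder replicate 1 was low. Responders over non-responders gave a log2 fold change of 0.36 (SE 0.24, interval -0.21 to 0.92, edgeR adjusted p = 0.854). This became 0.75 and passed (edgeR adjusted p = 0.0485) when non-responder replicate 2 was left out, and 0.05 in the fit that lacked replicate 1 of that group.

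Ccl7 had 16.1 and 15.1 CPM in responder libraries and 9.56 and 24.7 CPM in non-responder libraries. Its extremes were the non-responder libraries, with the responder libraries between them. The log2 fold change of -0.14 (SE 0.44, edgeR adjusted p = 0.970) was -0.66 when non-responder replicate 1 was left out and turned to 0.70 in the fit that lacked replicate 2 of that group. Ccl2 gave 8.51 and 8.42 reads per Ccl7 read in responder libraries, and 8.18 and 5.17 in non-responder replicates 1 and 2. The ratio was thus close in 3 libraries and lower in non-responder replicate 2.

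Cxcl10, an interferon-induced T-cell chemokine and the most abundant other CXC chemokine, was likewise lowest in non-responder replicate 1. It had 380 and 404 CPM in responder libraries, against 161 and 323 CPM in non-responder libraries. Whether the low values of Kitl, Ccl2 and Il34 in that library are tied to that of Cxcl10 was not tested.

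Ccl12, the third ligand of the monocyte group, had 3 and 8 reads (0.149 and 0.419 CPM) in responder libraries, against 30 and 34 reads (1.45 and 1.52 CPM) in non-responder libraries. The groups did not overlap, and the non-responder libraries agreed within counting error. Summed reads, scaled to library size, were 5.31-fold lower in responders (exact 95% interval 2.78 to 11.2, counting error only). Its fitted log2 fold change was -2.38 (SE 0.60), with an edgeR adjusted p = 0.586 and an unadjusted p = 0.00416. It was -3.27 when responder replicate 2 was left out and -1.82 in the fit that lacked replicate 1 of that group. Ccl12 entered the test through its non-responder reads alone, so its p-values lend no support to a difference.

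The 3 monocyte chemokines lie in 1 cluster on chromosome 11: Ccl2 (ENSMUSG00000035385) from 82035571 to 82037453, Ccl7 (ENSMUSG00000035373) from 82045712 to 82047525, and Ccl12 (ENSMUSG00000035352) from 82101845 to 82103400. Ccl7 starts 8.26 kb past the end of Ccl2. Of the others in that cluster, Ccl11, an eosinophil chemokine that lies between Ccl7 and Ccl12, had at most 7 reads in any library. Ccl8 had 1 and 3 reads in responder and 1 and 30 reads in non-responder replicates 1 and 2, and Ccl1 had none. Ccl2 and Ccl7 thus gave most of the reads of the cluster in every library.

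**Figure D2:**
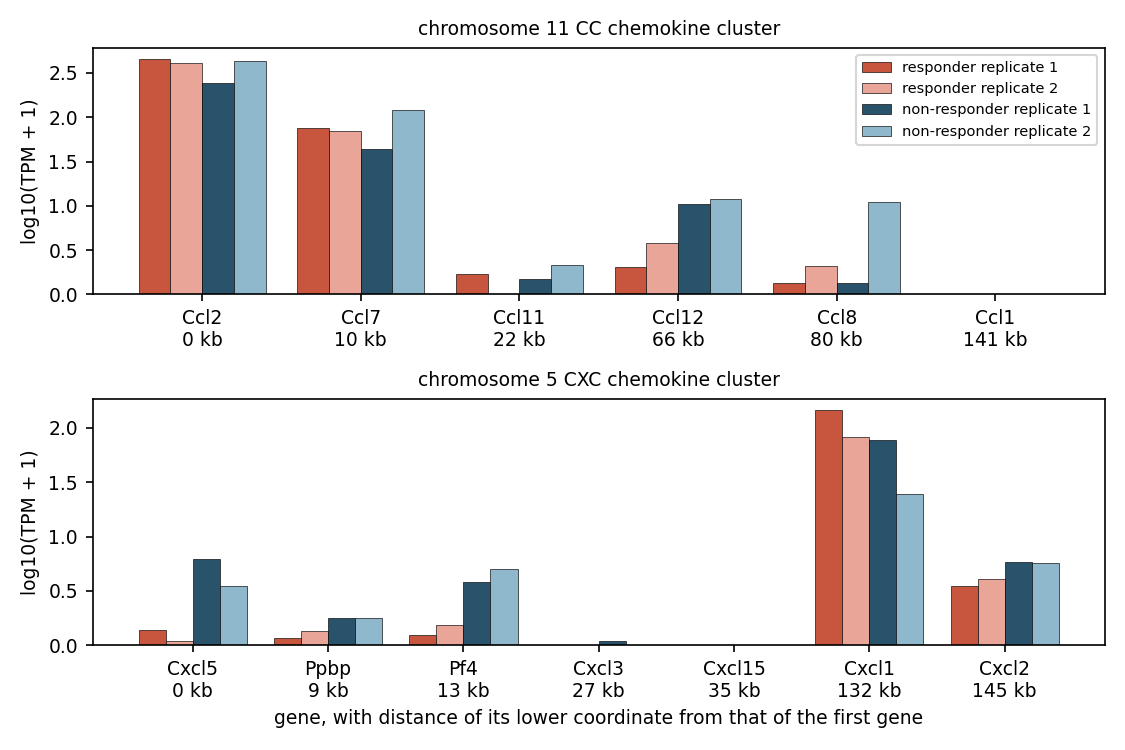
Level of each gene in the chromosome 11 CC and chromosome 5 CXC chemokine clusters as log10(TPM + 1), with genes in chromosomal order and their distance from the first gene in kb; bars are single libraries, responder in red and non-responder in blue. Ccl2, Ccl7 and Cxcl1 are the highest, and Ccl12, Cxcl5 and Pf4 are lower in both responder libraries.

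Cxcl1 varied most among the abundant factors. It had 72.2 and 41.9 CPM in responder libraries and 40.5 and 11.5 CPM in non-responder libraries, a range of 6.26-fold. The groups did not overlap, yet responder replicate 2 and non-responder replicate 1 were nearly equal (800 and 839 reads). The log2 fold change was 1.13 (SE 0.73, interval -0.96 to 3.23, edgeR adjusted p = 0.860). Leaving out non-responder replicate 1 gave 2.31 and leaving out replicate 2 of that group 0.49. Leaving out responder replicate 1 gave 0.68 and leaving out replicate 2 of that group 1.47. Immediate early genes, which also respond to tissue dissociation, had a positive fold change for 13 of 14, and 0 passed. Their summed level was 2297 and 4105 CPM in responder libraries, against 1867 and 1643 CPM in non-responder libraries. Within the responder group that sum was higher in replicate 2 and Cxcl1 higher in replicate 1. The list was not uniform. Ier3 (83.4 and 40.4 CPM in responder replicates 1 and 2) and Nr4a1 (76.1 and 67.0 CPM) were higher in replicate 1, as Cxcl1 was. The rest were higher in replicate 2. The part of immediate early genes in the Cxcl1 values was not tested.

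Cxcl5, the other neutrophil chemokine among the members, had a fold change opposite in sign to that of Cxcl1. Its reads numbered 4 and 1 (0.198 and 0.0523 CPM) in responder libraries, against 57 and 27 (2.75 and 1.21 CPM) in non-responder libraries. The groups did not overlap, and the responder libraries lay near the limit of detection. Summed reads were 15.3-fold lower in responders (exact 95% interval 6.32 to 48.5, counting error only). Its fitted log2 fold change was -3.90 (SE 0.75), with an edgeR adjusted p = 0.370 and an unadjusted p = 0.000886, which placed it 32 among 13792 genes. Cxcl5 passed with DESeq2 (-3.99, adjusted p = 0.0377), and with edgeR when responder replicate 1 (-5.09, adjusted p = 0.0102) or non-responder replicate 2 (-4.38, adjusted p = 0.0017) was left out. It did not pass with edgeR when responder replicate 2 (adjusted p = 0.0752) or non-responder replicate 1 (adjusted p = 0.187) was left out.

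Cxcl5 (ENSMUSG00000029371, chromosome 5 from 90759360 to 90761624) and Cxcl1 (ENSMUSG00000029380, chromosome 5 from 90891241 to 90893115) start 132 kb apart in a CXC cluster 147 kb long. Cxcl1 gave 364 and 800 reads per Cxcl5 read in responder libraries and 14.7 and 9.52 in non-responder libraries. Cxcl2, a close relative of Cxcl1 that follows it on the chromosome, had 28 and 33 reads in responder libraries and 59 and 56 in non-responder libraries. Its log2 fold change was -0.78 (SE 0.40, edgeR adjusted p = 0.804). Pf4, the platelet factor gene near Cxcl5, had 1 and 2 reads in responder and 12 and 17 in non-responder libraries (edgeR adjusted p = 0.558). Like Cxcl5, it entered the test through its non-responder reads alone. Cxcl3 had at most 2 reads in any library and Cxcl15 none.

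Marker levels of other cell types are given here beside those of the scarce Ccl12 and Cxcl5. Ccl12 and Ccl6 ordered the 4 libraries as the summed macrophage markers did. Responder replicate 1 was lowest, then responder replicate 2, non-responder replicate 1 and non-responder replicate 2. The sizes differed for both. The macrophage sum was close in responder replicate 2 and non-responder replicate 1 (124 and 133 CPM). There Ccl12 had 0.419 and 1.45 CPM, and Ccl6 had 0.576 and 1.69 CPM. Single macrophage markers were not alike in these libraries: Ccr2 had 0.995 and 2.08 CPM, and Csf1r had 8.58 and 8.36 CPM. From non-responder replicate 1 to replicate 2 the sum rose from 133 to 337 CPM. Ccl12 stayed within counting error (1.45 and 1.52 CPM), and Ccl6 had 1.69 and 1.88 CPM. Ccl6, a myeloid chemokine and the gene of smallest p among the other CC chemokines, had 1 and 11 reads in responder libraries, against 35 and 42 in non-responder libraries. Cxcl5 did not keep that order: it was lower in responder replicate 2 than in responder replicate 1, and lower in non-responder replicate 2 than in non-responder replicate 1.

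Of 10 neutrophil markers, 2 were tested, both with a negative fold change, and 0 passed. The 9 other than Mmp9 summed to 0.397 and 0.838 CPM in responder libraries, against 1.45 and 2.60 CPM in non-responder libraries. Not all of the 9 had this direction. Cxcr2 had 2 reads in responder replicate 1 and none elsewhere. Il1r2 had 2 and 5 reads in responder and 4 and 4 in non-responder libraries. Csf3r, the receptor of granulocyte growth factor, had 0 and 7 reads in responder and 9 and 29 in non-responder libraries. S100a8 and S100a9, the most abundant transcripts of mature neutrophils, had 2 reads or fewer in any library, and Ly6g had none. Mmp9, a gelatinase gene that other cells also express, had 183 and 289 CPM in responder and 341 and 396 CPM in non-responder libraries.

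Of 12 fibroblast markers, 10 were tested and 0 passed, 9 with a negative fold change at a median of -1.22. At an unadjusted edgeR p under 0.05 there were 7 of the 10, against 6.21% of all tested genes. The groups did not overlap for 8 of the 10, against 36.5% of all tested genes. Postn, the periostin gene and the tested marker of largest fold change, had 16.8 and 19.1 CPM in responder libraries, against 127 and 57.7 CPM in non-responder libraries. Col1a2, the only tested marker with a positive fold change (0.24), had 126 and 20.3 CPM in responder and 72.3 and 51.6 CPM in non-responder libraries. Col3a1 had at least 5792 CPM in every library, and whether these genes mark fibroblasts in the sorted cells was not tested. The part of macrophages, neutrophils and fibroblasts in the Ccl12 and Cxcl5 values was not tested.

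**Figure D3:**
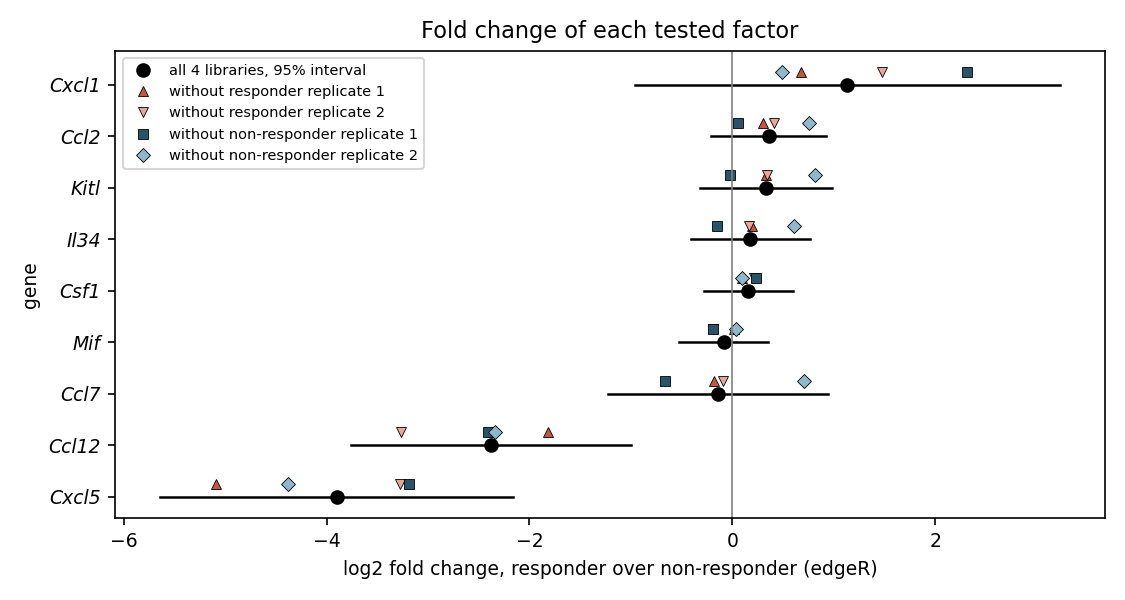
Log2 fold change (responder over non-responder) of the 9 tested factors from edgeR, with black points and lines for all 4 libraries and their 95% interval, and colored symbols for fits with 1 library left out. Intervals of the 7 upper genes cross 0; for Cxcl1, Ccl2, Kitl, Il34 and Ccl7 the value turns on which non-responder library is used.

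Cxcl12, which stromal fibroblasts usually supply, was close to undetected. It had 5 and 10 reads (0.248 and 0.523 CPM) in responder libraries and 1 and 7 reads (0.0483 and 0.314 CPM) in non-responder libraries. The groups overlapped, and the ratio of summed reads was 2.05 (exact 95% interval 0.817 to 5.59, counting error only). The 12 fibroblast markers summed to 8615 and 7424 CPM in responder libraries and 9991 and 16275 CPM in non-responder libraries, most of it from the collagen gene Col3a1, with Thy1 and Pi16 under 1 CPM in every library. Cxcl12 (ENSMUSG00000061353) lies on chromosome 6 from 117168535 to 117181367.

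Mif had the smallest fold change of the 9 tested members. It had 26.2 and 30.3 CPM in responder libraries and 27.4 and 32.4 CPM in non-responder libraries, and the groups overlapped. The log2 fold change was -0.08 (SE 0.19, interval -0.52 to 0.35, edgeR adjusted p = 0.955). Its absolute level is uncertain. Of 742 distinct stretches of 50 bases in Mif transcripts, 378 (50.9%) also occur in 7 other annotated genes at other loci, among them the pseudogene Mif-ps3, and reads that fit several places were not counted. The share was 0.693% for Cxcl5 and 0% for each of the other 8 members. Ddt, the gene for a protein related to MIF, had 2.43 and 3.56 CPM in responder and 4.44 and 4.84 CPM in non-responder libraries (edgeR adjusted p = 0.824). Mif (ENSMUSG00000033307) lies on chromosome 10 from 75859353 to 75860240.

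The receptors through which these ligands act on blood cells were scarce per length: Csf1r averaged 8.59 TPM, Ccr2 1.09 TPM and Kit 0.0451 TPM, against 243, 382 and 143 TPM for the ligands Csf1, Ccl2 and Kitl. Of 17 receptor genes, 9 were tested, 0 passed, 3 had a positive and 6 a negative fold change, at a median of -1.64. Csf1r had 9 and 164 reads in responder libraries and 173 and 609 in non-responder libraries, which made 858 and 41.2 reads of Csf1 per Csf1r read in responder and 41.2 and 11.5 in non-responder replicates 1 and 2, equal in responder replicate 2 and non-responder replicate 1. Ccr2, the receptor of CCL2, CCL7 and CCL12 and the receptor gene of smallest p among those with a negative fold change, had 2 and 19 reads in responder libraries, against 43 and 105 in non-responder libraries (log2 fold change -2.63, SE 0.93, edgeR adjusted p = 0.758). Csf1r and Ccr2 are themselves macrophage markers, and both were lowest in responder replicate 1 and highest in non-responder replicate 2, as were the macrophage markers summed. Kit had at most 5 reads in any library, Cxcr2 at most 2 and Cxcr1 none.

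**Figure D4:**
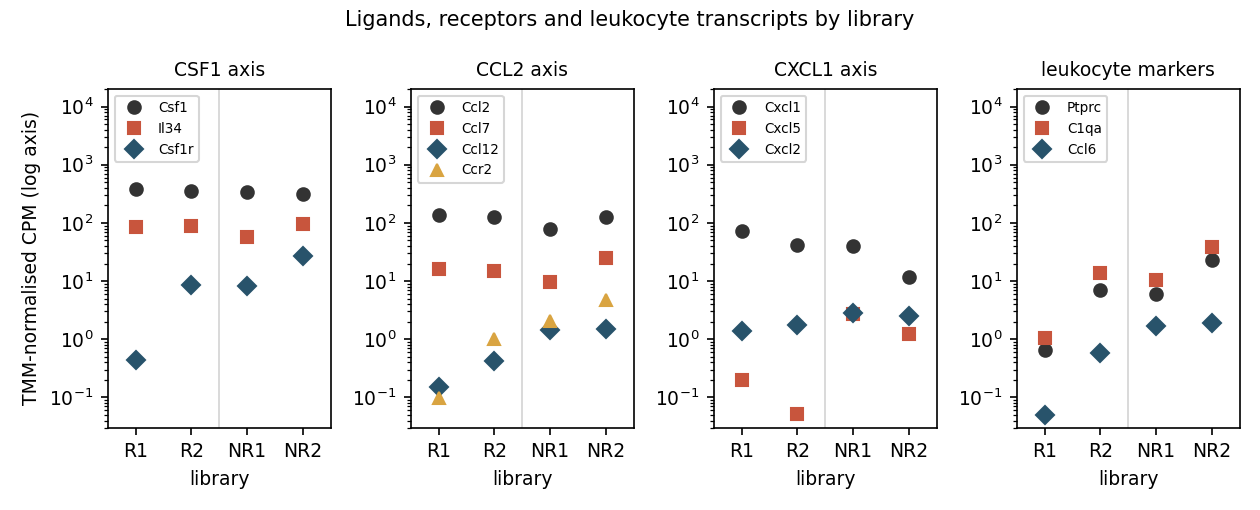
TMM-normalised CPM on a log axis for ligands and receptors of the CSF1, CCL2 and CXCL1 axes and for leukocyte markers, 1 point per library (R1 and R2, responder; NR1 and NR2, non-responder). Csf1, Il34 and Ccl2 vary 1.22-fold, 1.70-fold and 1.75-fold between their lowest and highest library. Csf1r and Ccr2, like Ptprc and C1qa, are lowest in R1 and highest in NR2. Heights of different genes are not corrected for length.

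Some binding partners were instead at high level in the sorted libraries. Cd44, the co-receptor of MIF, had 1171 and 1250.4 CPM in responder libraries and 964 and 830.4 CPM in non-responder libraries. Its groups did not overlap (log2 fold change 0.43, SE 0.21, edgeR adjusted p = 0.796), and it was the receptor gene of smallest p with a positive fold change. Cd74, the binding partner of MIF and also the class II invariant chain of antigen-presenting cells, had 2.23 and 53.1 CPM in responder libraries and 8.74 and 164 CPM in non-responder libraries. Sdc1, a syndecan that binds IL-34, had 70.6 and 68.8 CPM in responder libraries against 50.1 and 73.8 CPM in non-responder libraries. Ackr3, the scavenging receptor of CXCL12, had 48.5 and 42.9 CPM in responder and 28.3 and 60.8 CPM in non-responder libraries, and averaged 50.1 TPM where Cxcl12 averaged 0.129 TPM. Cxcr4 had at most 5.70 CPM.

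Proteases and matrix partners that release or present the factors were broadly expressed. Of 14 such genes, 12 had at least 10 CPM in every library, 13 were tested and 0 passed, with 4 positive and 9 negative fold changes at a median of -0.16. The highest by TPM were the serine protease gene Htra1, the syndecan gene Sdc4 and the gelatinase gene Mmp2. Mmp2, also the member of smallest p among the negative ones, had 336 and 317 CPM in responder and 497 and 605 CPM in non-responder libraries (log2 fold change -0.75, SE 0.20, edgeR adjusted p = 0.631). Among the positive ones it was Ctsk, a cysteine protease gene with 19 and 11 reads in responder and 5 and 9 reads in non-responder libraries (edgeR adjusted p = 0.796). Adam17, the sheddase that frees membrane CSF1, had 377 and 288 CPM in responder and 408 and 361 CPM in non-responder libraries. Dpp4, which trims CXCL12, was too low to be tested.

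Of 22 further myeloid cytokine genes, 13 were tested and 0 passed, 6 with a positive and 7 with a negative fold change at a median of -0.08. The highest 3 by TPM were Spp1 (osteopontin), Angptl2 and Vegfa, with means of 921, 293 and 270 TPM over the 4 libraries. Spp1 had 381 and 533 CPM in responder and 275 and 452 CPM in non-responder libraries, with groups that overlapped. The member of smallest p with a positive fold change was Lif, a cytokine of the interleukin-6 family, with 13.3 and 11.4 CPM in responder and 8.74 and 8.70 CPM in non-responder libraries (log2 fold change 0.50, SE 0.23, edgeR adjusted p = 0.796). Csf2, for the granulocyte-macrophage growth factor, and Csf3, for the granulocyte growth factor, had at most 2 reads in any library. Il3 had none.

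Of the 16 other CC and CX3C chemokines, 7 were tested, 1 with a positive fold change, 0 passing, at a median of -1.37. The highest by TPM was Ccl5, a T-cell and monocyte chemokine, with 18.3 and 19.5 CPM in responder and 11.4 and 28.5 CPM in non-responder libraries. Ccl25 had 19.7 and 24.2 CPM in responder libraries, against 18.8 and 16.8 CPM in non-responder libraries, and Ccl4 had 0.0496 and 1.05 CPM in responder and 1.21 and 2.11 CPM in non-responder libraries. Of the 12 other CXC chemokines, 7 were tested and 0 passed, with 2 positive fold changes at a median of -0.78. Cxcl9 had 76.3 and 43.3 CPM in responder and 15.7 and 134 CPM in non-responder libraries, and Cxcl16 had 0.198 and 4.97 CPM in responder and 5.02 and 12.0 CPM in non-responder libraries.

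All 20 genes of the pathways that control chemokine transcription, inhibitors included, were tested, and 0 passed, 12 with a positive and 8 with a negative fold change at a median of 0.14. Nfkbia, the NF-kB inhibitor and itself an NF-kB target, had 199 and 255 CPM in responder and 110 and 125 CPM in non-responder libraries (log2 fold change 0.95, SE 0.20, edgeR adjusted p = 0.430). Unlike Cxcl1, it was higher in responder replicate 2 than in responder replicate 1. The subunit gene Rela had 96.4 and 99.2 CPM in responder and 93.6 and 84.8 CPM in non-responder libraries. Jun and Fosl1, both AP-1 subunits, were the highest by TPM with Nfkbia. Stat3, which carries interleukin-6 signals, had the smallest p among the negative ones, with 248 and 208 CPM in responder and 260.0 and 329 CPM in non-responder libraries (edgeR adjusted p = 0.829).

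Promoter sequence was available for 6 of the 10 members: Csf1, Kitl, Ccl12, Cxcl1, Cxcl12 and Mif. The RefSeq windows (GRCm38.p6) were searched over the 250 bases before the annotated start for short motifs on both strands: GGG and TTTCC with any 2 bases between them for NF-kB, TATAAA for a TATA box, GGGCGG for a GC box, TGACGTCA for a cyclic AMP response element and TGANTCA for AP-1. The letters were chosen with the sequences in view. The 160 bases before the start are shown for a pair of abundant factors, Cxcl1 and Csf1, and a pair of scarce ones, Ccl12 and Cxcl12, so that both levels can be read beside their sequence. Capitals mark motif matches, and overlapping GC box matches run together.
Cxcl1: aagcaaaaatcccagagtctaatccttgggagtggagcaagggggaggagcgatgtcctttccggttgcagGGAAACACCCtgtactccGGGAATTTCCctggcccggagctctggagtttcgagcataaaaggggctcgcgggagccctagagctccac
Csf1: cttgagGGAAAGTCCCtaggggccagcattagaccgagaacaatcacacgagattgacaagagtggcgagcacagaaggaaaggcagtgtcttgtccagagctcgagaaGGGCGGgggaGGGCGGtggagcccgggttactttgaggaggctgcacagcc
Ccl12: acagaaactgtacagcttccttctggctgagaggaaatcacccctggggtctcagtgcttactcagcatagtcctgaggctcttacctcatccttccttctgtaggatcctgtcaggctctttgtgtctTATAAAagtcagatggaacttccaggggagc
Cxcl12: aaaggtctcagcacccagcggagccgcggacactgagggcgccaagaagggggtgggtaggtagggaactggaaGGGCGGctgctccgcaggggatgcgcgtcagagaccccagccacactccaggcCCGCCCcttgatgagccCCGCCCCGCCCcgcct
The Cxcl1 stretch lies at chr5:90891085-90891244 on the plus strand, that of Csf1 at chr3:107760470-107760629 on the minus strand, that of Ccl12 at chr11:82101685-82101844 on the plus strand and that of Cxcl12 at chr6:117168375-117168534 on the plus strand. All are written in the direction of transcription.

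Cxcl1 held an NF-kB match on each strand, GGGAATTTCC on the forward and GGAAACACCC read on the reverse, and Csf1 held GGAAAGTCCC on the reverse, while 1.41% of 32851 RefSeq windows held any. TATAAA occurred in Ccl12 and Kitl and in 12.4% of windows. GC boxes occurred in Csf1, Kitl, Cxcl12 and Mif and in 32.7% of windows, and the response element in Mif and 1.55% of windows. The AP-1 letters occurred in none of the 6 and in 6.75% of windows. The scarce Cxcl12 and the abundant Csf1 thus both carried GC boxes, and these matches are letters in a window, not measured binding.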

How the data were processed

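Bulk RNA-seq of sorted MC38 tumor cells was available as 4 libraries, 2 responder and 2 non-responder, grouped by sample title. Reads were aligned with STAR to mm10 (GRCm38), per the submitters' processing notes; its version is not given in the sources used here. The deposited files hold raw counts per gene, made by the authors with featureCounts 1.6.1 per the file headers: reverse-stranded (setting 2), on Ensembl release 91, with no option set to count multi-mapping reads, which the tool leaves out by default. The deposited exon lengths, in bases, were used for TPM.

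The members and gene lists were chosen with earlier results of these data known. Of 53379 identifiers, 53274 matched a symbol. Genes were kept by filterByExpr (minimum count 10), leaving 13792, scaled by TMM (factors 0.952 to 1.036) and tested with edgeR 4.0.16 in R 4.3.3 by a robust quasi-likelihood test with group as the only term. P-values were adjusted over all tested genes by Benjamini-Hochberg with a threshold of 0.05. Standard errors come from the F statistic and the fold change, and 95% intervals use the fit's degrees of freedom, unadjusted. The common biological coefficient of variation was 0.216. An exact permutation test of 2 against 2 libraries cannot go below p = 0.333 and was not used. No pair of libraries was near-identical (chi-square per degree of freedom 25.3 to 74.7). Counting intervals are exact binomial intervals at 95%; without molecular identifiers they and the limits of 3 reads cover counting error only.

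All 10 members are named. From each other list the 3 genes of highest mean TPM and the gene of smallest p in each direction were named, marker lists excepted. Other genes, those of the marker lists included, were named after their values were seen, most of them for their role. Alternatives were RLE and upper-quartile factors, library size alone, DESeq2 1.42.0, limma-voom (limma 3.58.1), no low-count filter, at least 5 CPM in 2 libraries, no mitochondrially encoded genes, a block for replicate number, leave-one-out fits, the unadjusted p, and other limits for abundance. The fit was tested on simulated data. Promoters came from RefSeq, and shared stretches of 50 bases from GENCODE M21 transcripts on both strands, leaving out genes that overlap the member's own locus.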

Additional observations from a re-analysis of the deposited data

How the results depend on the processing

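The count of members passing was 0 with edgeR. It stayed 0 with RLE, upper-quartile and no factors, limma-voom, mitochondrially encoded genes left out and the replicate block. With the 5 CPM filter, which dropped Cxcl5 and Ccl12 and left 7 members tested, the count was also 0 and could not include those 2. It was 1 with DESeq2, 2 with no low-count filter (Cxcl5, adjusted p = 8.99e-06, and Ccl12, adjusted p = 0.0225), 2 at the unadjusted p, and 0 to 3 with 1 library left out, the 3 being Kitl, Ccl2 and Cxcl5 without non-responder replicate 2. Genes passing over the whole table numbered 0 in the main setting, 64 with DESeq2, 212 with no filter, 32 with the replicate block, 856 at the unadjusted p and 41 to 516 with 1 library left out. Members with a positive fold change numbered 5 of 9, and 5 of 7 with the 5 CPM filter. They numbered 6 of 9 with limma-voom and with the replicate block. With DESeq2 and with no filter, where Cxcl12 was also tested, they numbered 6 of 10. With 1 library left out they ran from 4 of 10, without non-responder replicate 1, to 8 of 10, without non-responder replicate 2. The log2 fold change of Ccl7 turned from -0.14 to 0.0072 with limma-voom, to 0.00424 with the replicate block and to 0.70 without non-responder replicate 2. That of Mif turned from -0.08 to 0.01 without responder replicate 1 and to 0.0396 without non-responder replicate 2. Those of Il34 and Kitl turned to -0.15 and -0.023 without non-responder replicate 1. With 1 library left out, the values ran from -0.66 to 0.70 for Ccl7, -0.19 to 0.0396 for Mif, -0.15 to 0.61 for Il34 and -0.023 to 0.81 for Kitl. The causes were not tested. Fits with 1 library left out leave 1 library in a group, which is assumed to vary like the others. The number of abundant members was 6 and, at 5 CPM, 20 CPM, a mean of 10 CPM, library size alone and 10 TPM, 7, 5, 7, 6 and 7. The labels do not say that replicate numbers pair libraries; deviations of same-numbered libraries correlated at 0.39 across genes, and the block changed no member's call. Depth limits Cxcl5, Ccl12 and Cxcl12, where single libraries had 1 to 3 reads. The settings in which Cxcl5 or Ccl12 passed rest on these same reads and add no support.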
